A study of Rattus norvegicus with 107 samples.

Results

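Enteroendocrine genes were followed in the colon of suckling rats, with brain as the contrast. They were chosen by symbol: Chga, Chgb, Pyy, Gcg, Tph1, Scg2, Scg5 and Neurod1, as the annotation of the array names them. Of these 8 genes, 7 have a named probe, 1 each, among 22523 probes and 13337 different symbols. Tph1, the first enzyme of serotonin synthesis in the gut, has no named probe and was not analysed here. Total RNA of Sprague Dawley pups was measured on Illumina RatRef-12 BeadChips at 9 ages, PND -1 (embryonic day 21) and postnatal days (PND) 1, 2, 3, 5, 7, 10, 15 and 22. Colon gave 53 samples, 5 of PND -1 and 6 of each age after it, and the right brain hemisphere gave 54, or 6 an age. The pups had no treatment. Those of PND -1 were taken from 1 dam by Caesarean section and had not suckled, so a litter and the age cannot be told apart there. The sources used here do not say which litters gave the later samples, and p-values measure the spread between these samples only.

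Enteroendocrine cells are scattered hormone-secreting cells of the gut epithelium, and in the distal bowel many are L cells, which make proglucagon and peptide YY. They store peptide hormones in dense-core granules with chromogranins and secretogranins, and release them when food or its products reach the lumen. The same granule proteins are made by neurons, including those of the enteric nervous system in the gut wall, and by endocrine cells of the pancreas. In whole tissue, fewer cells of a type and less RNA per cell cannot be told apart.

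The hormone genes are Gcg (probe ILMN_1365500), which encodes the precursor of glucagon and of the glucagon-like peptides, and Pyy (ILMN_1359664), which encodes peptide YY. Chga (ILMN_1353197) and Chgb (ILMN_1359665) encode the granule proteins chromogranin A and B. Scg2 (ILMN_1360716) encodes secretogranin II, and Scg5 (ILMN_1374355) encodes 7B2, the chaperone of prohormone convertase 2. Neurod1 (ILMN_1363838) encodes a basic helix-loop-helix transcription factor of endocrine cells and neurons. In the rat assembly GRCr8, Gcg lies at chr3:67522489-67531533, Pyy at chr10:87561347-87562470, Chga at chr6:127460895-127472238, Chgb at chr3:140496712-140510057, Scg2 at chr9:88251531-88257208, Scg5 at chr3:120998420-121042881 and Neurod1 at chr3:84766483-84770454. The place of each probe within its gene was not used here.

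Sequence before the start given in the promoter table of RefSeq (GRCr8) is shown for both hormone genes and for the pair of granule genes that fell together after PND 15. For Gcg and Pyy these are the 250 bases before the gene. For Scg2 and Scg5 the start used by the table lies 342 and 86 bases inside the span of the gene given above, so only 30 bases around the response element are shown for Scg2, all inside that span, and for Scg5 the 164 bases of the window outside it. Capitals mark the cyclic AMP response element TGACGTCA, its core TGACG and the E-box CAGATG, searched on both strands in the 250 bases before the start of the table, with the core also counted inside the full element.
Gcg: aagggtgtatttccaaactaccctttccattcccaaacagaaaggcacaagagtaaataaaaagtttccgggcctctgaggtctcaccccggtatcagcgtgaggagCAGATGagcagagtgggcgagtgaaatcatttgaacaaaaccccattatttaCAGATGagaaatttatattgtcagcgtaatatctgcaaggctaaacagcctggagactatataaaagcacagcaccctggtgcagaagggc
Pyy: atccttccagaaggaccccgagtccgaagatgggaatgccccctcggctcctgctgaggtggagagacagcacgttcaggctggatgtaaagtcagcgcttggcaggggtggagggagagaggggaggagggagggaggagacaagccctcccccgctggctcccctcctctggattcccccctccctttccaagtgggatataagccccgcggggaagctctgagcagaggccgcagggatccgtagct
Scg2: ggctgagccggTGACGTCAgcgaggaatgc
Scg5: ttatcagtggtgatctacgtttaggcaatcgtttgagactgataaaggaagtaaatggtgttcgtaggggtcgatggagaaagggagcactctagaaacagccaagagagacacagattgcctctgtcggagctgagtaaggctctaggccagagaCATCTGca
These are the minus strands of chr3:67531534-67531783, chr10:87562471-87562720, chr9:88256971-88257000 and chr3:121042882-121043045. Gcg holds the E-box at 143 and 91 bases before its start, and Scg5 holds it once, at 94 bases, read as CATCTG. Scg2 holds the full cyclic AMP response element at 123 bases before the start of the table, Scg5 holds a core at 7 bases, in the part not shown, and the window of Pyy holds none of these letters. Of 33469 rat promoters of this length, 1.59% hold the full element, 18.2% the core and 14% the E-box. A match to these letters is a description only. RefSeq promoters were matched for 7 of the 8 genes, all but Chga.

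Colon samples held 10276 to 12277 detected probes, at a detection p under 0.05, and brain samples 9617 to 12016. Probes at this limit read 65.6 to 72.88 units of normalized signal in colon and 66.31 to 76.87 in brain. The tissues carried their markers, and 8 epithelial genes summed to 34710 to 68170 units in the colon samples against 522.5 to 916.7 units in the brain samples. Several samples stood apart from the others of their group. Colon PND -1 replicate 4 differed by over 1 log2 unit at 357 probes, against a median of 30 over all colon samples. It carried brain genes such as Nrgn, a postsynaptic protein, at 2914 units against 101.6 to 127.1 units in the other 4 samples of that age. Colon PND 22 replicate 2 differed at 204 probes, PND 1 replicate 4 at 149 and PND 22 replicate 5 at 118. In brain the median was 10.5 probes, and PND 22 replicate 6 had the highest count, 73. Brain PND 15 replicate 6 differed at 44 probes and stood apart in Neurod1. In the fits that left out one of the samples named here, run over 11 comparisons, the call of 1 of the 7 genes changed. This was Gcg at PND 22 against PND 3 in colon, given with its values.

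Over the 9 ages in colon, 4 of the 7 measured genes changed, Chga, Chgb, Scg2 and Scg5 (limma, adjusted p under 0.01), against 36.7% of all 22523 probes. Gcg, Pyy and Neurod1 did not pass this test. The largest ratio between the highest and the lowest mean level of a gene was 3.12 for Scg2, followed by 2.23 for Chgb and 1.79 for Scg5, and the smallest was 1.25 for Neurod1. Gcg, Pyy, Chgb, Scg2 and Scg5 were detected in all 53 colon samples, Chga in 39 and Neurod1 in 29. The same 4 genes passed without colon PND -1 replicate 4, where the adjusted p of Scg5 was 1.24e-10 against 7.07e-05 with it, and also without the 6 samples of PND 22.

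**Figure D1:**
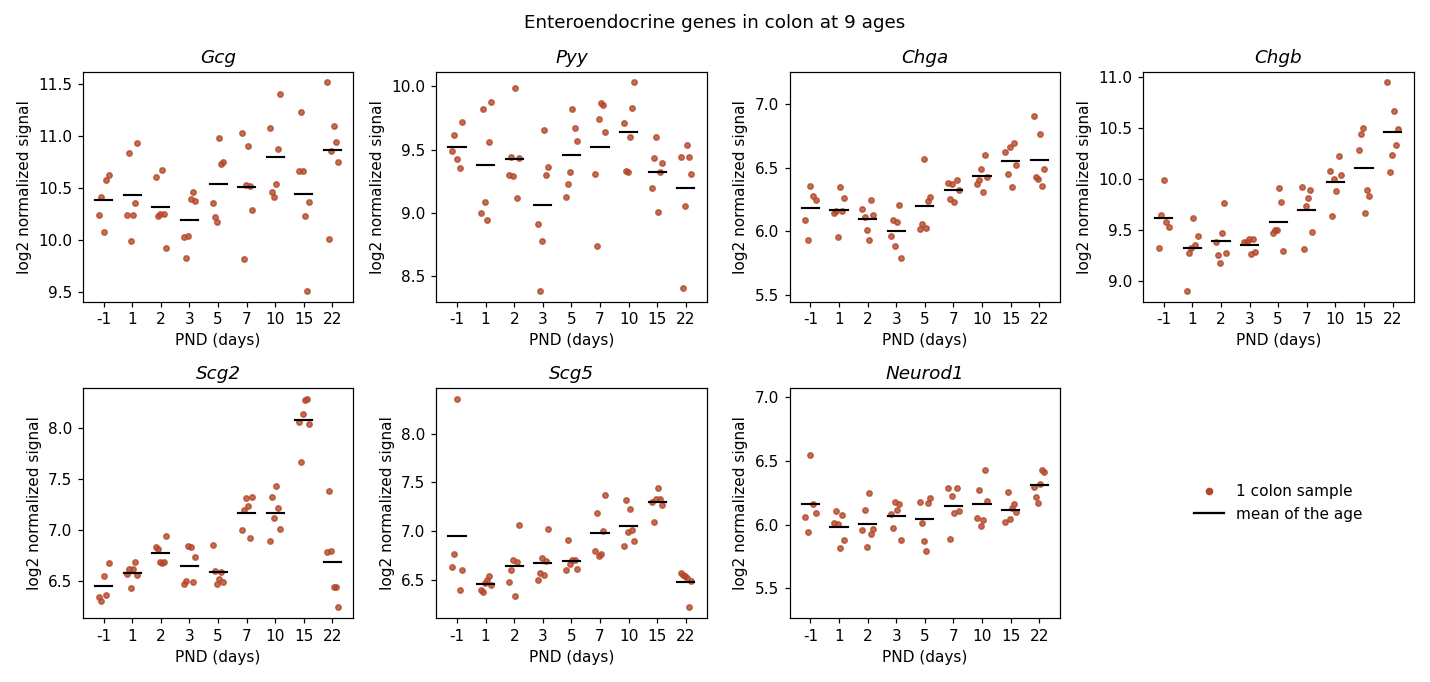
Log2 normalized signal (vertical axis) of each colon sample (points) and the mean of each age (black line) against PND in days, 1 panel a gene, over 9 ages. Chga and Chgb had their highest mean at PND 22, where neither differed from PND 15 by the test. Scg2 and Scg5 had their highest mean at PND 15 and lay far lower at PND 22. The single high point of Scg5 at PND -1 is replicate 4 (328.8 units).

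Around birth no measured gene passed the test. From PND -1 to PND 1, 0 of 7 were called in colon against 3.73% of all probes, and from PND 1 to PND 3, 0 of 7 against 1.72%. At an unadjusted p under 0.05, Chgb (p = 0.0436), Scg5 (p = 0.00491) and Neurod1 (p = 0.0494) were lower at PND 1 than at PND -1 in limma (exact two-sided permutation p = 0.0628, 0.0195 and 0.104), and none of the 7 had a limma p under 0.05 between PND 3 and PND 1. In the exact two-sided permutation test Scg5 was higher at PND 3 than at PND 1 (p = 0.00649), with overlapping samples and a log2 change of 0.22. Scg5 read 82.85, 87.9 and 92.96 units at PND 1 (lowest, median and highest of 6 samples), against 83.8, 97.04, 98.81, 108.6 and 328.8 units at PND -1. The groups overlapped, and the highest value is replicate 4, the sample that carried brain genes. The log2 change of Scg5 at birth was -0.50 with this sample and -0.14 without it (limma adjusted p = 0.0589 and 0.512). That of Neurod1 was -0.18 with it and -0.08 without it, and that of Chgb -0.29 and -0.20. Without this sample 0 of the 7 genes had a limma p under 0.05 at birth.

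Gcg was at its lowest mean at PND 3 and at its highest at PND 22. It averaged 1355 ± 211, 1422 ± 377, 1300 ± 246, 1183 ± 206, 1519 ± 347, 1517 ± 435, 1834 ± 526, 1482 ± 557 and 1950 ± 619 units from PND -1 to PND 22 in order of age (SD, n = 6, and 5 at PND -1). No 2 neighbours in the order of these means differed by the test, and over all 36 pairs of ages 0 were called. The pair nearest to a call was PND 22 and PND 3. At PND 22 the 6 samples read 1032, 1723, 1853, 1972, 2190 and 2928 units, against 907, 1049, 1052, 1331, 1348 and 1411 units at PND 3. All but 1 of the samples of PND 22 lay above all samples of PND 3. The change was 0.67 ± 0.21 on the log2 scale (SE), or 1.6-fold, with an adjusted p of 0.0108 in limma, which misses the threshold of 0.01, and an exact two-sided permutation p of 0.0195. The low sample is replicate 2. Without it the change was 0.84 with an adjusted p of 0.00106, and without PND 3 replicate 5 it was 0.73 with an adjusted p of 0.00911.

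Pyy gave no such difference at the end of the series. It averaged 737 ± 75.4, 690 ± 202, 702 ± 163, 557 ± 172, 712 ± 135, 762 ± 198, 808 ± 158, 646 ± 89.8 and 606 ± 150.0 units from PND -1 to PND 22 in order of age. None of the 36 pairs of ages was called, and the smallest adjusted p was 0.041, for PND 10 against PND 3, at a log2 change of 0.57. At PND 22 its samples read 338, 532.5, 631.9, 696.2, 696.9 and 740.7 units, against 332.9, 437.3, 480.5, 629.1, 657.3 and 806.1 units at PND 3, and the groups overlapped. The lowest sample of PND 22 is replicate 2, without which the mean there was 660 ± 81 units (n = 5). PND 22 minus PND 3 was 0.14 on the log2 scale, with a 95% interval of -0.25 to 0.52. An interval of this width does not show that Pyy was constant.

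The log2 distance between the Gcg and Pyy probes of a sample was followed as well. It averaged 1.67 ± 0.23 at PND 22 against 1.13 ± 0.24 at PND 3 (n = 6 each), a difference of 0.54 in which the ranges met at 1.45 without overlapping, and an exact two-sided permutation p of 0.00216, the smallest that 6 against 6 samples can give. Against PND 15, at 1.12 ± 0.54, the difference was 0.55 with an exact two-sided permutation p of 0.0325. Without PND 22 replicate 2 the mean there was 1.68 ± 0.26 (n = 5), and the differences were 0.55 from PND 3 and 0.56 from PND 15, with exact two-sided permutation p of 0.00433 and 0.0541. These comparisons were chosen after the values were seen. The distance ranged from 0.87 to 1.16 in the means of the ages before PND 22. It is a description of the pair and does not tell which of them moved. Across the 53 colon samples the levels of the pair had a Pearson correlation of 0.59, and of 0.68 after the mean of each age was taken off.

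Gcg is also made by the islets of the pancreas, and pancreatic markers were high in the colon samples of PND 22. All 6 listed genes, the insulins Ins1 and Ins2 and the digestive enzymes Prss1, Cpa1, Cel and Pnlip, were higher at PND 22 than at PND 3 (median log2 change 3.11). Their summed signal was 1683 to 25030 units at PND 22, against 357.4 to 463.1 units at PND 3 and 367.8 to 596.6 units at PND 15. In PND 22 replicates 1 to 6 the sums were 10240, 25030, 22630, 9617, 1722 and 1683 units, beside Gcg levels of 2928, 1032, 1853, 2190, 1972 and 1723 units. The highest Gcg level was that of replicate 1 and the lowest that of replicate 2, which had the highest sum. The sum pools the insulins with the digestive enzymes and does not measure the islets alone. Of the pancreatic genes, Ins2 was detected in 10 of 53 colon samples, Cel in 9 and Pnlip in 44. Which part of the Gcg signal at PND 22 came with these markers was not tested. Of 8 epithelial genes, 6 were also higher at PND 22 than at PND 3 (median log2 change 0.66), and their part was not tested either.

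Chga and Chgb were higher in the later ages. From PND 3 to PND 10, 3 of the 7 genes rose, Chga, Chgb and Scg2, against 3.13% of all probes called higher, and 0 of 7 fell against 3.26%. From PND 3 to PND 22, 2 of 7 rose, Chga and Chgb, against 11.7% of all probes, and 0 fell against 12.7%. The median log2 change of the 7 genes was 0.24 in that comparison. The 6 pancreas markers, with the sums given above, rose in it too. So did 6 of 8 epithelial genes, with a median log2 change of 0.66 over the 8. These 8 summed to 60850 to 68170 units at PND 22 against 39970 to 45260 units at PND 3. The part of either list in the rise of Chga and Chgb was not tested. From PND 3 to PND 10, when Chga and Chgb also rose, 0 of the 6 pancreas markers were called, against the 3.13% and 3.26% given above. Of the 8 epithelial genes, 1 rose and 1 fell in that step.

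Chgb averaged 792 ± 138, 646 ± 102, 676 ± 105, 656 ± 28.1, 772 ± 125, 838 ± 135, 1015 ± 136, 1128 ± 270 and 1438 ± 327 units from PND -1 to PND 22 in order of age. At PND -1 the mean was 737 ± 68.9 units without replicate 4 (n = 4). At PND 22 the samples read 1077, 1208, 1290, 1444, 1631 and 1978 units, against 616.8, 624.8, 665.9, 666.3, 679.3 and 682.2 units at PND 3. The lowest value of PND 22 exceeded the highest of PND 3. The rise was 1.10 ± 0.14 on the log2 scale, or 2.15-fold (limma adjusted p = 1.61e-09). At PND 10 the rise over PND 3 was 0.62 (adjusted p = 9e-04). From PND 15 to PND 22 the change was 0.36 with an adjusted p of 0.0473 and overlapping samples. Of the 36 pairs of ages, 15 were called, all with the later age higher.

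Chga, a probe near the detection limit early on, averaged 73 ± 8.3, 72.3 ± 6.48, 68.8 ± 5.32, 64.4 ± 6.68, 74 ± 11.5, 80.4 ± 4, 86.6 ± 6.14, 94 ± 8.47 and 95.3 ± 15.4 units from PND -1 to PND 22 in order of age. It was detected in 1 of 6 samples at PND 3 and in 6 of 6 at each age from PND 7 on. At PND 22 its lowest, median and highest levels were 82.12, 87.94 and 120.1 units, against 55.42, 64.92 and 73.7 units at PND 3. The groups did not overlap. The rise was 0.56 ± 0.09 on the log2 scale, or 1.47-fold (limma adjusted p = 4.8e-07), and since most samples of PND 3 were not above background its size there is uncertain. Between PND 22 and PND 15 the difference was 0.01, with a 95% interval of -0.16 to 0.18. Of the 36 pairs, 12 were called, all with the later age higher.

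Scg2 had a peak at PND 15. It averaged 87.4 ± 9.96, 95.6 ± 5.58, 109 ± 8.15, 100.4 ± 12.5, 96.3 ± 9.83, 144 ± 16.2, 144 ± 20, 273 ± 39.8 and 106 ± 32.8 units from PND -1 to PND 22 in order of age. From PND 10 to PND 15, Scg2 was the 1 gene of 7 that rose, against 1.3% of all probes. At PND 15 its samples read 203.3, 263.3, 266.1, 281.2, 309.5 and 312.2 units, against 118.3, 128.2, 138.3, 148, 160.2 and 171.9 units at PND 10. The samples did not overlap, and the rise was 0.92 ± 0.12 on the log2 scale, or 1.89-fold (limma adjusted p = 2.07e-07). In the order of the means, PND 15 differed from its neighbour PND 10, and no other 2 neighbours differed by the test.

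From PND 15 to PND 22, Scg2 and Scg5 fell, 2 of 7 genes against 9.27% of all probes called lower, and 0 of 7 rose against 9.13%. Scg2 read 75.44, 86.74, 86.9, 109.9, 110.8 and 166.7 units at PND 22, below all 6 samples of PND 15. Without replicate 2, the highest of these, the mean at PND 22 was 94 ± 15.7 units (n = 5). The change was -1.40 ± 0.12 on the log2 scale, 2.64-fold lower (limma adjusted p = 3.98e-14, exact two-sided permutation p = 0.00216). Scg5 read 74.23, 89.77, 91.64, 92.54, 93.44 and 95.09 units at PND 22, against 136.8, 153.6, 157.1, 160.9, 160.9 and 173.9 units at PND 15. The samples did not overlap here either. The change was -0.81 ± 0.16, 1.76-fold lower (adjusted p = 6.1e-05, exact two-sided permutation p = 0.00216). With any 1 sample of these ages left out, Scg2 changed by -1.54 to -1.31 and Scg5 by -0.85 to -0.76, and both stayed called.

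Scg5 had its highest mean at PND 15 as well. From PND 1 on, its means in order of age were 87.6 ± 3.83, 101.1 ± 18.1, 103 ± 14.4, 104 ± 8.39, 128 ± 23.7, 133 ± 17.4, 157 ± 12.1 and 89.4 ± 7.67 units. At PND -1 it averaged 143 ± 104 units with replicate 4 and 97.1 ± 10.2 units without it. In a comparison chosen after the values were seen, Scg5 was higher at PND 15 than at PND 3 by 0.62 ± 0.16 and Scg2 by 1.44 ± 0.12 (limma adjusted p = 0.003 and 3.31e-14), and 4 of the 7 genes rose there, Chga and Chgb included, against 6.56% of all probes. At PND 22 neither gene differed from PND 3 by the test. Scg2 differed by 0.04, with a 95% interval of -0.19 to 0.27, and Scg5 by -0.20, with an interval of -0.52 to 0.13.

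Markers of enteric neurons and of muscle were lower at PND 22 together with Scg2 and Scg5. Of 10 neuronal genes, 9 fell from PND 15 to PND 22, with a median log2 change of -1.56 against 0.01 over all probes. Gap43, a growth cone protein, changed by -2.63 and Prph, the intermediate filament peripherin, by -2.82. The summed signal of the 10 genes was 1242 to 3137 units at PND 22, against 6242 to 10190 units at PND 15. All 4 smooth muscle genes fell as well, with sums of 14000 to 31750 units at PND 22 against 32430 to 36890 units at PND 15, while 5 of 8 epithelial genes rose. In PND 22 replicate 2 the neuronal sum was 3137 units, the highest of that age, and Scg2 was also highest there, at 166.7 units. Of 3 glial genes 2 fell, with a median of -0.76. When Scg2 and Scg5 were higher, at PND 15 against PND 3, 4 of the 10 neuronal genes were higher too (median 0.59), with 2 of 3 glial genes (0.78) and 3 of 4 smooth muscle genes (0.82). From PND 10 to PND 15 alone, when Scg2 rose, 0 of the 10 neuronal genes were called, against 1.3% of all probes higher. Their median log2 change was 0.25, and their sum had a median of 6793 units at PND 10 and 7681 units at PND 15. The part of these markers in the rise and fall of Scg2 and Scg5 was not tested.

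**Figure D2:**
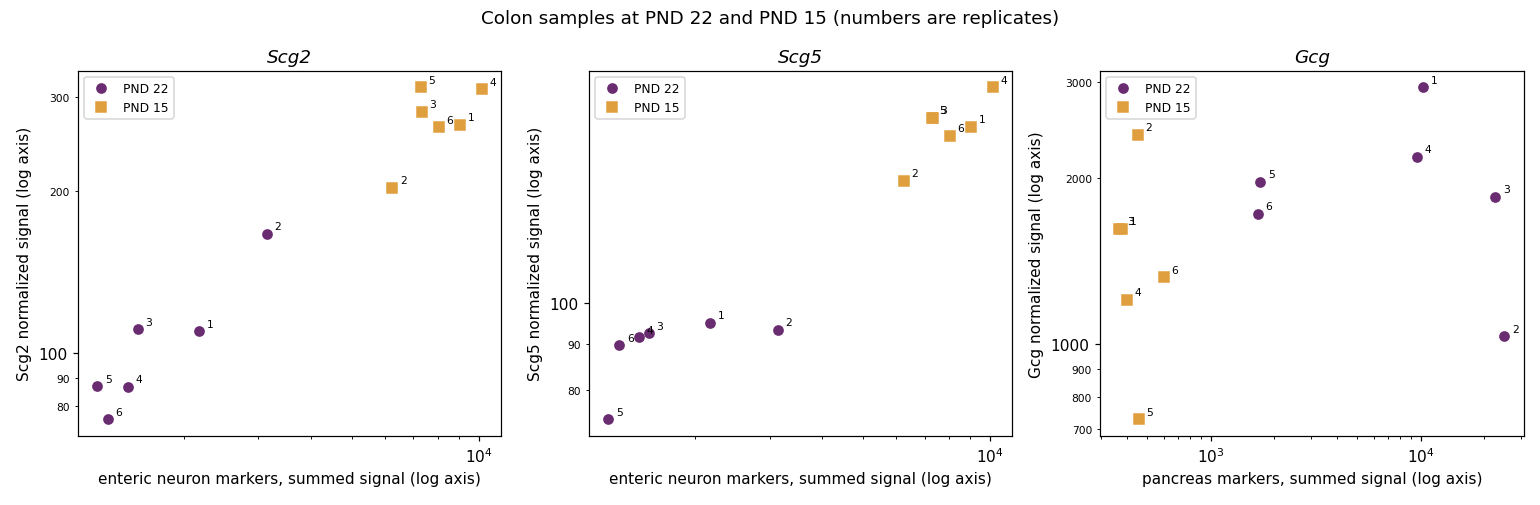
Level of Scg2, Scg5 and Gcg (vertical axes, normalized signal, log scale) against the summed signal of 10 enteric neuron markers or 6 pancreas markers (horizontal axes, log scale) in each colon sample of PND 22 and PND 15, with replicate numbers at the points. For Scg2 and Scg5 the samples of PND 22 lie low on both axes, while the PND 22 sample with the highest pancreas sum (25030 units) had the lowest Gcg level of that age (1032 units).

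Neurod1 stayed near the detection limit in colon. It averaged 72.3 ± 12.4, 63.4 ± 4.86, 64.6 ± 6.9, 67.1 ± 5.22, 66.2 ± 7.89, 71.2 ± 7.34, 71.8 ± 8.52, 69.5 ± 4.15 and 79.3 ± 5.77 units from PND -1 to PND 22 in order of age. It was detected in 6 of 6 samples at PND 22, against 2 of 6 at PND 3. Its change from PND 3 to PND 22 was 0.24 ± 0.08, with an adjusted p of 0.0229 in limma. Of the 36 pairs of ages, 2 were called, PND 22 against PND 1 and against PND 2, at changes of 0.33 and 0.30.

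More of the genes passed the test in brain than in colon. Over the 9 ages 6 of 7 changed in brain, all but Pyy, against 35.4% of all probes. From PND 3 to PND 22, 5 of 7 rose, Chga, Chgb, Scg2, Scg5 and Neurod1, against 11.7% of all probes, and 0 fell against 12.2%. Their median log2 change was 0.93 over the 7 genes. Neurod1 rose by 2.48 ± 0.32, or 5.59-fold, at 1395, 1926 and 2698 units at PND 22 (lowest, median and highest) against 291.6, 338.9 and 404.9 units at PND 3. Scg5 rose by 1.77 ± 0.09, or 3.42-fold, at 1352, 1556 and 1607 units at PND 22 against 405.2, 440.4 and 490.8 units at PND 3. Chgb rose by 1.37 and Scg2 by 0.93, each without overlap between the ages. The rise of Chga was 0.33 with overlapping samples, and with 1 sample left out it passed in 7 of 12 fits. It did not pass without PND 3 replicate 1 or 6 or without PND 22 replicate 1, 4 or 5, with changes of 0.25 to 0.33 and a highest adjusted p of 0.0421 in limma.

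Neurod1 in brain held a sample far from its group. At PND 15 replicate 6 read 171.7 units, and the other 5 samples of that age read 1664 to 2304 units. Over the 9 ages Neurod1 was called in brain with this sample and without it (limma adjusted p = 7.82e-12 and 4.21e-21). At PND 15 its mean was 1624 ± 743 units with the sample and 1915 ± 237 units without it (n = 6 and 5).

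**Figure D3:**
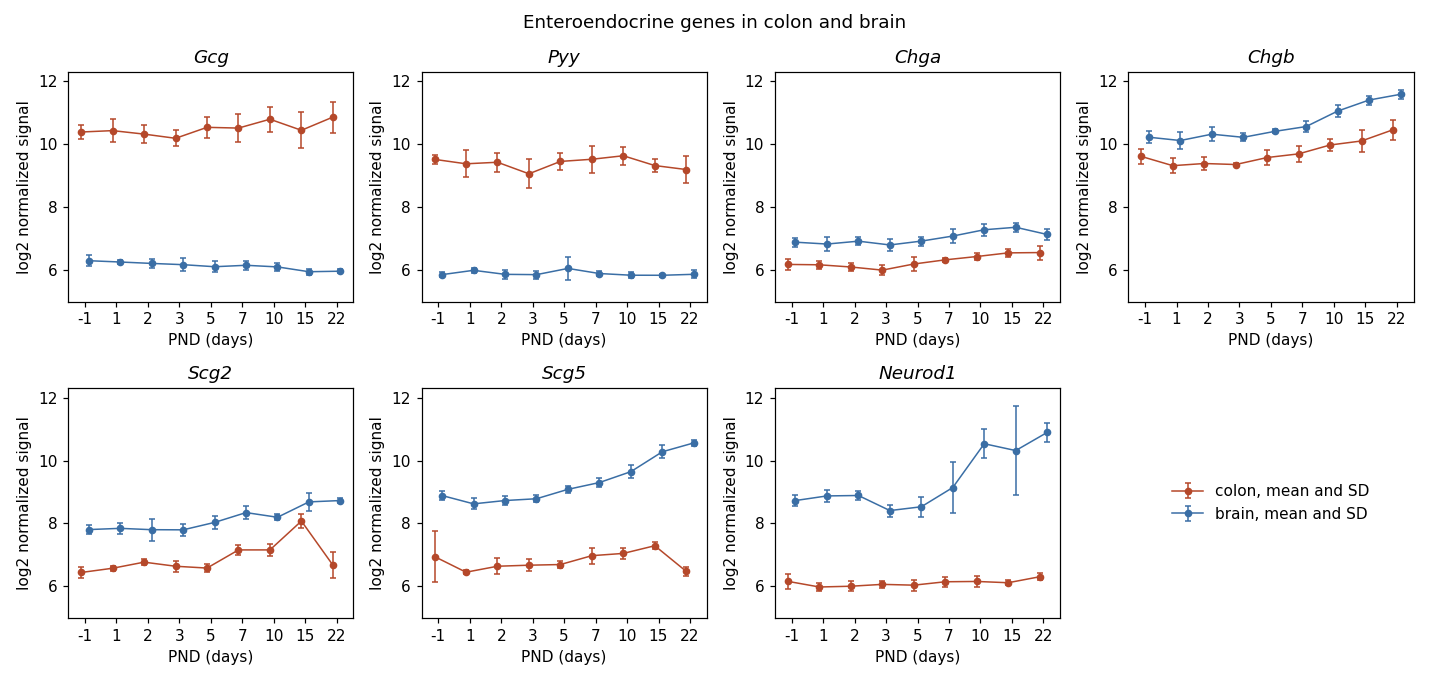
Mean log2 normalized signal (vertical axis) with the SD as bars, in colon and brain, against PND in days, 1 panel a gene. Gcg and Pyy lie higher in colon at all 9 ages and the other 5 genes higher in brain, and the lines of Scg2 and Scg5 part at PND 22.

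The change from PND 3 to PND 22 differed between the tissues for 4 of 7 genes, against 21.2% of all probes. Gcg changed by 0.67 in colon and -0.21 in brain, a difference of 0.88 ± 0.23 (limma adjusted p = 0.00145). Scg2 differed by -0.89 ± 0.17 (5.33e-06 as adjusted p), Scg5 by -1.97 ± 0.18 (3.14e-16) and Neurod1 by -2.24 ± 0.34 (4.93e-08). These 3 genes rose in brain, by 0.93, 1.77 and 2.48. In colon they changed by 0.04, -0.20 and 0.24, and none of these changes was called. For Chga, Chgb and Pyy the difference did not pass, at 0.22, -0.26 and 0.12, with 95% intervals of -0.04 to 0.49, -0.60 to 0.08 and -0.30 to 0.55. In brain, Gcg was detected in 26 of 54 samples and in 0 of 12 at PND 15 and PND 22, and its own change there did not pass (adjusted p = 0.0448 in limma). The change from PND 3 to PND 15 was compared after the values were seen. There Scg2 differed the other way, by 0.55 ± 0.17, with the larger rise in colon (limma adjusted p = 0.00993). Scg5 differed by -0.87 and Neurod1 by -1.85 (limma adjusted p = 0.000114 and 1.02e-05), with brain PND 15 replicate 6 included.

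The fall after PND 15 was also set against brain, in a comparison chosen after the values were seen. From PND 15 to PND 22 in brain, 0 of 7 genes were called by limma against 3.23% of all probes. At an unadjusted p under 0.05, Scg5 was higher (limma p = 0.00207, exact two-sided permutation p = 0.0195) and Chga lower (limma p = 0.0243, exact two-sided permutation p = 0.0411). Scg2 read 388.9 to 452.2 units at PND 22 in brain against 334.8 to 585.7 units at PND 15, and Scg5 1352 to 1607 units against 1025 to 1440 units. The highest value of both genes at PND 15 is replicate 6, the sample apart in Neurod1. Without it 0 of 7 genes were called in brain, with 2 at an unadjusted p under 0.05, and Scg2 changed by 0.14 and Scg5 by 0.32. The colon change minus the brain change was -1.44 ± 0.17 for Scg2 and -1.10 ± 0.18 for Scg5 (limma adjusted p = 1.12e-11 and 1.3e-06), and 2 of 7 genes passed, against 12.6% of all probes. Both passed without brain PND 15 replicate 6 and without colon PND 22 replicate 2 or 5, with changes of -1.58 to -1.39 for Scg2 and -1.14 to -1.04 for Scg5.

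**Figure D4:**
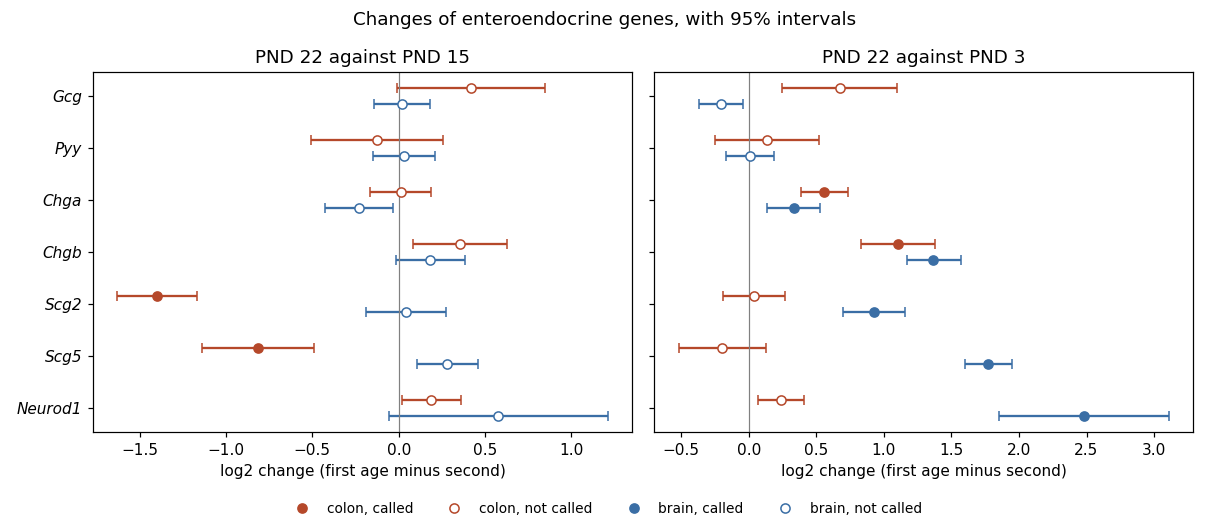
Log2 change of each gene with its 95% interval (horizontal axis) from PND 15 to PND 22 and from PND 3 to PND 22, in colon and brain; filled points have a limma adjusted p under 0.01. Scg2 and Scg5 are the only filled points in colon after PND 15, at -1.40 and -0.81, and no point of brain is filled in that comparison.

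Averaged over the 9 ages, all 7 genes differed between colon and brain, against 53.6% of all probes. Gcg and Pyy were higher in colon. Pyy was detected in 53 of 53 colon samples against 1 of 54 brain samples, so only a bound is given for the ages at which no brain sample was detected, from at least 7.38-fold at PND 3 to at least 11.5-fold at PND 10. Gcg was detected in 53 of 53 colon samples against 26 of 54 brain samples, and where no brain sample was detected it was at least 20.1-fold higher in colon at PND 15 and at least 27.4-fold at PND 22. The other 5 genes were lower in colon, with log2 differences of -0.93 for Chgb, -1.24 for Scg2 and -2.52 for Scg5, all detected in every sample of both tissues. The measured differences of Chga (-0.75) and Neurod1 (-3.26) are set against probes detected in 39 and 29 of 53 colon samples, and their size is uncertain. At each age the samples of the 2 tissues did not overlap for any of the 7 genes. The share of all probes without such overlap was not counted, so this is a description only. Of the 9 ages, the gap of Scg2 was widest at PND 22, at 4.14-fold higher in brain, and narrowest at PND 15, at 1.53-fold. That of Scg5 was 16.9-fold at PND 22 and 7.92-fold at PND 15.

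Likeness of profile was measured by Pearson's r over the 53 colon samples against 8135 named probes. The genes most like Scg2 were Grp, which encodes gastrin-releasing peptide, a neuropeptide of the gut wall (r = 0.90), Rgs18 (0.89) and Calcb, a calcitonin gene-related peptide (0.89). Those most like Scg5 were Omg, the oligodendrocyte myelin glycoprotein (0.92), Eef1a2, a translation elongation factor of neurons and muscle (0.91), and Arhgdig (0.90), with values of 0.89 each when PND -1 replicate 4 was left out. Those most like Gcg were Iapp, which encodes amylin (0.62), Mecom (0.62) and Hoxa7 (0.62). Pyy was most like Wfdc2 (0.62), Gcg (0.59) and Pck2 (0.51). Chga was most like Chgb (0.77), Prelp (0.75) and Inpp5j (0.75), and Chgb like Slc13a1, a sulphate transporter (0.84), RT1-CE15 (0.83) and Clcn2 (0.83). Neurod1 was most like Ivns1abp (0.68), Sfxn5 (0.66) and Akap9 (0.65). These r describe samples that share their ages.

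Other genes of the enteroendocrine programme were counted in colon, where 11.7% of all probes rose and 12.7% fell from PND 3 to PND 22, and 9.13% rose and 9.27% fell from PND 15 to PND 22. Of 11 further hormone genes, 4 rose and 1 fell from PND 3 to PND 22, with a median log2 change of 0.28. Cck, the gene of cholecystokinin, rose by 1.17, Nts (neurotensin) by 1.02 and Ppy (pancreatic polypeptide) by 0.59, and Tac1, the substance P precursor of neurons and some endocrine cells, fell by 1.08. Ppy is also made in the pancreas, whose 6 markers all rose in this comparison, by a median of 3.11. From PND 15 to PND 22, 2 rose and 3 fell. Among those that fell were Nmu, neuromedin U, by 2.18, and Sst, somatostatin, by 1.11, named after their values were seen. Both had risen from PND 3 to PND 10, by 1.88 and 0.82, and Sst rose again by 0.79 from PND 10 to PND 15. Of the 10 enteric neuron markers, 9 also fell from PND 15 to PND 22 (median log2 change -1.56). From PND 3 to PND 10, 0 of the 10 were called (median 0.39), against 3.13% of all probes higher and 3.26% lower. Their part in the changes of Nmu and Sst was not tested.

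Of 13 further granule and prohormone processing genes, 7 fell and 0 rose from PND 15 to PND 22, with a median of -0.46, against 9.27% of all probes lower. The 10 enteric neuron markers, of which 9 fell with a median over the list of -1.56, and 2 of 3 glial markers moved with them, and their part was not tested. Scg3, secretogranin III, changed by -1.43, Cadps, a factor for granule release, by -1.29, Ptprn by -0.51 and Pam, the peptide-amidating enzyme, by -0.60. In brain 6 of these 13 rose from PND 3 to PND 22 and 0 fell, against 11.7% and 12.2% of all probes. In colon 2 rose and 3 fell, against 11.7% and 12.7% of all probes. The counts of the 3 remaining lists are small numbers. They are set against 11.7% of all probes higher and 12.7% lower, and are a description only. Of 13 transcription factors of the endocrine lineage, 0 rose and 2 fell in colon from PND 3 to PND 22, Myt1 by 0.86 and Etv1 by 0.46. Neurog3, which starts the endocrine programme, is named here outside the rule for its role. It changed by -0.12 with an adjusted p of 0.341 in limma, and was detected in 17 of 53 colon samples. Isl1 was detected in 11 of them, Pax6 in 6, Rfx3 in 4, Fev in 3, Rfx6 in 1, and Foxa1 and Lmx1a in 0. Probes mostly not detected may not show a change. Foxa2, Myt1 and Hhex were detected in all 53, Pax4 in 52 and Etv1 in 51. Of 12 nutrient-sensing genes, Ffar4, a receptor for long-chain fatty acids, rose by 0.60, and Ffar2, a receptor for short-chain fatty acids, and the channel subunit Abcc8 fell, by 0.75 and 0.41. Of 11 genes of hormone receptors and clearance, Htr4, a serotonin receptor, rose by 0.33 and Slc6a4, the serotonin transporter, by 0.34, and 0 fell.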

How the data were processed

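Bead signals of 107 samples (53 colon, 54 brain) were used. Per the labels and the methods, RNA was amplified to biotin-labelled cRNA, hybridised to RatRef-12 BeadChips and summarised in BeadStudio. The deposited values are linear intensity per probe with a detection p-value, and the authors also deposited quantile-normalized intensity, which differed from the values computed here by a median of 0.0061 log2 units. Replicate 1 of colon at PND -1 was set aside by the authors as an outlying array and was not analysed here.

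Raw intensity was quantile normalized over both tissues, floored at 1 and taken to log2 (R 4.3.3, limma 3.58.1). Levels are given as normalized signal on the linear scale. One mean per age and tissue was fitted in limma, p-values were adjusted by Benjamini-Hochberg across the 22523 probes, and a gene was called at an adjusted p under 0.01. Single values were tested by exact two-sided permutation tests, whose smallest p is 0.00216 here. Figures were drawn in matplotlib 3.10.9. Scripts were tested on simulated data. The number of arrays limits the precision. The files name no chip, so no chip was fitted as a block.

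The genes and lists were chosen with earlier results of these data known. Named were the 8 genes, up to 4 genes of each list with the largest called change from PND 3 to PND 22 in colon, and the 3 genes most like each gene. Genes outside this rule are said to be so. Alternatives were neqc background correction, scaling to the 75th percentile, normalization within each tissue, the authors' values, detected probes only, a floor of 16, moderated variances with a trend, a replicate block, at least 1.5-fold, and leaving out each sample. Leaving out the samples of PND 22, and the samples that stood apart, was added after seeing the data.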

Additional observations from a re-analysis of the deposited data

Results flagged for a closer look

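The change from PND 3 to PND 22 differed between colon and brain in the test of the difference itself for Gcg (0.88 on the log2 scale), Scg2 (-0.89), Scg5 (-1.97) and Neurod1 (-2.24). All 4 differences kept their call in each of the 24 fits that left out 1 sample. In brain, Gcg was detected in 2 of 6 samples at PND 3 and in 0 of 6 at PND 22, so its brain change lies at background. Its own change was called in neither tissue.

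Of 126 groups of samples, 10 (7.94%) held a sample set far from the others by Dixon's criterion, where chance gives about 1 in 20. In colon these were Scg5 at PND -1 in replicate 4 (328.8 units), at PND 5 in replicate 2 (119.8 units) and at PND 22 in replicate 5 (74.23 units), and Scg2 at PND 5 in replicate 1 (115.2 units). The first of these samples carried brain genes, as given above. In brain, Neurod1 at PND 15 was low in replicate 6 (171.7 units), and Chga was low at PND 3 in replicate 6 (84.82 units) and high at PND 5 in replicate 2 (145.7 units). Brain PND 5 replicate 6 was the high sample of its age for both Pyy (109.8 units) and Gcg (87.28 units). Gcg in brain at PND 22 was high in replicate 6 (68.2 units), where it was not detected.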

How the results depend on the processing

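Of 626 values of single genes under alternatives other than leaving out a sample, 605 kept their direction and their side of the threshold, 8 that were not called turned their sign, 11 became called, 2 lost the call and 0 called values reversed. Of the 13 changed calls, 11 came with scaling to the 75th percentile. Of 1869 values with 1 sample left out, 5 lost the call, all Chga at PND 22 against PND 3 in brain, and 2 became called, both Gcg at PND 22 against PND 3 in colon. Scaling to the 75th percentile moved 2 counts. It called 2 genes lower at PND 1 than at PND -1 in colon, Scg5 (-0.67) and Neurod1 (-0.48), and 4 genes at PND 22 against PND 15, where Chgb (0.70) and Gcg (0.80) joined. This scaling moved the median of all probes by -0.25 at PND 1 against PND -1 and by -0.26 at PND 22 against PND 3 in brain, and the share of higher calls there was 20.3% and 26.3%, against 46.5% and 48.9% in the values reported. At PND 22 against PND 15 in colon that share was 62%, against 49.6%. Asking for at least 1.5-fold left 1 gene at PND 10 against PND 3 and 1 at PND 22 against PND 3 in colon. The causes were not tested. Gcg at PND 22 against PND 3 in colon passed with detected probes only (adjusted p = 0.00641 in limma), where fewer probes are tested, and with the replicate block (adjusted p = 0.0099). The block changed no other call. Replicate numbers are shared by the groups without a stated link, and 45 of 53 colon samples correlated best with the brain sample of their own number, a hint from the data and not the design. Over the samples left out in turn, the counts over 9 ages stayed at 4 in colon and 6 in brain. Chga and Neurod1 lie near the detection limit in colon, which limits the size of their changes.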
